A study of Mus musculus with 8 samples.

Results

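The core circadian clock genes and the output gene Dbp were followed through bulk RNA sequencing of mouse gastrocnemius, the large muscle of the calf. The 10 genes were listed by symbol (Arntl, Clock, Per1, Per2, Per3, Cry1, Cry2, Nr1d1, Nr1d2 and Dbp), and all 10 of 21833 gene symbols in the count tables were found. All 10 also passed the filter on low counts that left 12755 genes for testing. In RA+Dipy muscle (n = 4 mice), serum from arthritic K/BxN mice was given to male C57BL/6J mice aged 12 weeks as 100 µL intraperitoneal injections on days 0 and 2, and dipyridamole was given daily from day 0 at 25 mg/kg. In RA muscle (n = 4 mice), the same strain, sex, age and serum were used without dipyridamole, and no vehicle is named. The serum was a pool given to both groups, and muscle was taken on day 16. Some sample labels conflict with the design text, since K/BxN stands as the genotype of serum recipients and dipyridamole as the treatment of all 8 samples, and the groups used here are those of the sample titles. No muscle without arthritis was analysed here. The hour of tissue collection, the light schedule and the feeding state, on which clock transcripts depend, are not given in the sources used here, and whether they differed between mice or groups was not tested.

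The clock is a transcriptional feedback loop that runs in nearly every cell. The activators CLOCK and BMAL1 (the product of Arntl) bind E-box sequences and switch on the Per and Cry genes, whose proteins return to the nucleus and inhibit the activators. The same pair switches on Nr1d1 and Nr1d2, which encode the REV-ERB repressors of Arntl, and Dbp, a transcription factor that passes the rhythm on to other genes. In mouse tissues, skeletal muscle included, Arntl RNA peaks at roughly the opposite time of day from Per and Dbp RNA, while Nr1d1 RNA peaks somewhat before Dbp and Per RNA. A single sample from each animal therefore carries a rough phase: high Arntl with low Per and Dbp, or the reverse. Muscle uses its clock to time glucose and lipid metabolism.

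The promoters were searched for the elements of this loop. RefSeq windows of 300 bases (GRCm38.p6, 250 before and 50 after an annotated start) were found for 9 of the 10 genes, 13 windows in all, and were searched on both strands. The motifs were the E-box CACGTG, its variant CACGTT, the core of the REV-ERB element as TAGGTCA or TGGGTCA, the D-box bound by DBP as TTATGTAA or TTACGTAA, and the cyclic AMP response element TGACGTCA. No 2 of these motifs overlapped in the windows printed here. Windows of the 4 genes with a perfect E-box, a D-box or a REV-ERB core are shown because these are the elements of the activators, of DBP and of REV-ERB; capitals mark the motifs and all other bases are in lower case, 5′ to 3′ on the gene's strand.
Arntl (chr7:113207261-113207560, plus strand): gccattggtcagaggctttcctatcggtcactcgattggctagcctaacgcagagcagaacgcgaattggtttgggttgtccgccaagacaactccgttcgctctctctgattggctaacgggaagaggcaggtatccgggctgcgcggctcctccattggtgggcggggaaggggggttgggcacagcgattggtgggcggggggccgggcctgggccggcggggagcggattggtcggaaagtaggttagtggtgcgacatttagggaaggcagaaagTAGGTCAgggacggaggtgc
Per1 (chr11:69098699-69098998, plus strand): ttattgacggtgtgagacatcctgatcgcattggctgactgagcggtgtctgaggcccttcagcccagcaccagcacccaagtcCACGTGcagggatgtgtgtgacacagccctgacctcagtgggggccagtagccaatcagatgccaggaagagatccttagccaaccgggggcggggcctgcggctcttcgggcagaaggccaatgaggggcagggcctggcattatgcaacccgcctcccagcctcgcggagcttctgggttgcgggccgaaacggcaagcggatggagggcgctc
Per3 (chr4:151044616-151044915, minus strand): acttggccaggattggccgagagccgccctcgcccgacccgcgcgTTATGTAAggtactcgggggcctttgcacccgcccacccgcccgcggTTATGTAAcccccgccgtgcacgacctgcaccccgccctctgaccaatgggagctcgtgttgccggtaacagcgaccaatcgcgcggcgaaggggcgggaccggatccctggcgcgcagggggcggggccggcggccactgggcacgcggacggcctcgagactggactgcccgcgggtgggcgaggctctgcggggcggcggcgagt
Cry1 (chr10:85185005-85185304, minus strand): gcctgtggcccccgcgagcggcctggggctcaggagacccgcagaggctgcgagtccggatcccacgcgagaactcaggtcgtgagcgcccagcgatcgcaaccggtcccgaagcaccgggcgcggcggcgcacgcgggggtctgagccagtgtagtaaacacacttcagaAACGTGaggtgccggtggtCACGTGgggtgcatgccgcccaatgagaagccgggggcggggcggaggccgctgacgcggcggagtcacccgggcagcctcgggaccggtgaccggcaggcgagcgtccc
The Arntl window held TAGGTCA at position 31 after the start. The Per1 window held an E-box at position −166, and the Cry1 window an E-box at −60 with the variant, read as AACGTG, at −79. The Per3 window held the D-box at −205 and again at −158. The E-box occurred in 7.15% of 32851 mouse promoter windows of the same length, the variant in 4.68%, the REV-ERB core in 6.45%, the D-box in 1.06% and the cyclic AMP response element in 1.79%. The variant was also present in the Cry2 and Nr1d1 windows. A match describes these letters only, and the windows of Clock, Nr1d2 and Dbp held none of the motifs.

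Library totals ran from 16405268 to 25371526 counts in RA+Dipy and from 16718884 to 50647761 in RA. Of all counts, 2.11% to 6.06% belonged to Myh4, the myosin of the fastest fibres, and 1.76% to 4.40% to Acta1, skeletal actin. Both shares were lowest in RA replicate 4 (2.11% and 2.15%) and RA+Dipy replicate 1 (3.12% and 1.76%). The other 6 libraries had at least 4.9% and 3.42%. RA+Dipy replicate 1 and RA replicate 4 stood apart from the other 6 libraries: over 4757 well expressed genes (mean of at least 20 CPM, counts scaled to library size), their log2 deviations from each gene's median over the 8 libraries had an SD of 0.81 and 1.20, against 0.17 to 0.35 in the others. In RA replicate 4 the decile of genes with the lowest GC content deviated by a median of −0.70 and that with the highest by 0.65. In RA+Dipy replicate 1 these medians were 0.36 and −0.32. Each library of this pair also had the lowest total count of its group, so leaving the pair out also removes the lowest depth. Values without this pair are given beside the main results. Of the cell type markers, 6 of 6 for macrophages had a log2 fold change above 0 and 0 passed the test, with summed levels of 114 to 223 CPM in RA+Dipy and 73.3 to 130.1 CPM in RA. The 5 Schwann cell markers summed to 114 to 203 CPM in RA+Dipy and 171 to 465 CPM in RA, and 4 of 4 endothelial and 4 of 4 adipocyte markers had a log2 fold change above 0, none of them past the test. Adipocyte markers summed to 31.6 to 283 CPM in RA+Dipy, highest in replicate 4, and to 26.5 to 86.6 CPM in RA. Red blood cell markers summed to 799 CPM in RA+Dipy replicate 1 and 1545 CPM in RA replicate 4, against 149 to 274 CPM in the other 6 libraries. None of the markers was at 0 in all libraries. In bulk muscle, fewer cells of a type and less RNA per cell cannot be told apart.

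Per kilobase of annotated exon, Nr1d1 had the highest level of the 10 genes, with 45.1 ± 14.2 CPM per kb over the 8 libraries (SD), followed by Dbp at 20.4 ± 10.7 and Nr1d2 at 14.4 ± 5.60. Nr1d1 exceeded Dbp in 8 of 8 libraries and Dbp exceeded Nr1d2 in 7. Cry2 stood at 6.51 ± 2.40 CPM per kb, Per1 at 4.50 ± 2.55 and Cry1 at 3.77 ± 0.984. Per1 lay above Cry1 in 4 of 8 libraries, so these neighbours did not differ beyond their spread. The lowest levels per kb were those of Per3 (1.64 ± 1.39), Clock (1.59 ± 0.374), Arntl (1.57 ± 0.832) and Per2 (1.02 ± 0.402), and neighbours among these 4 kept their order in only 3 to 5 of 8 libraries.

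**Figure D1:**
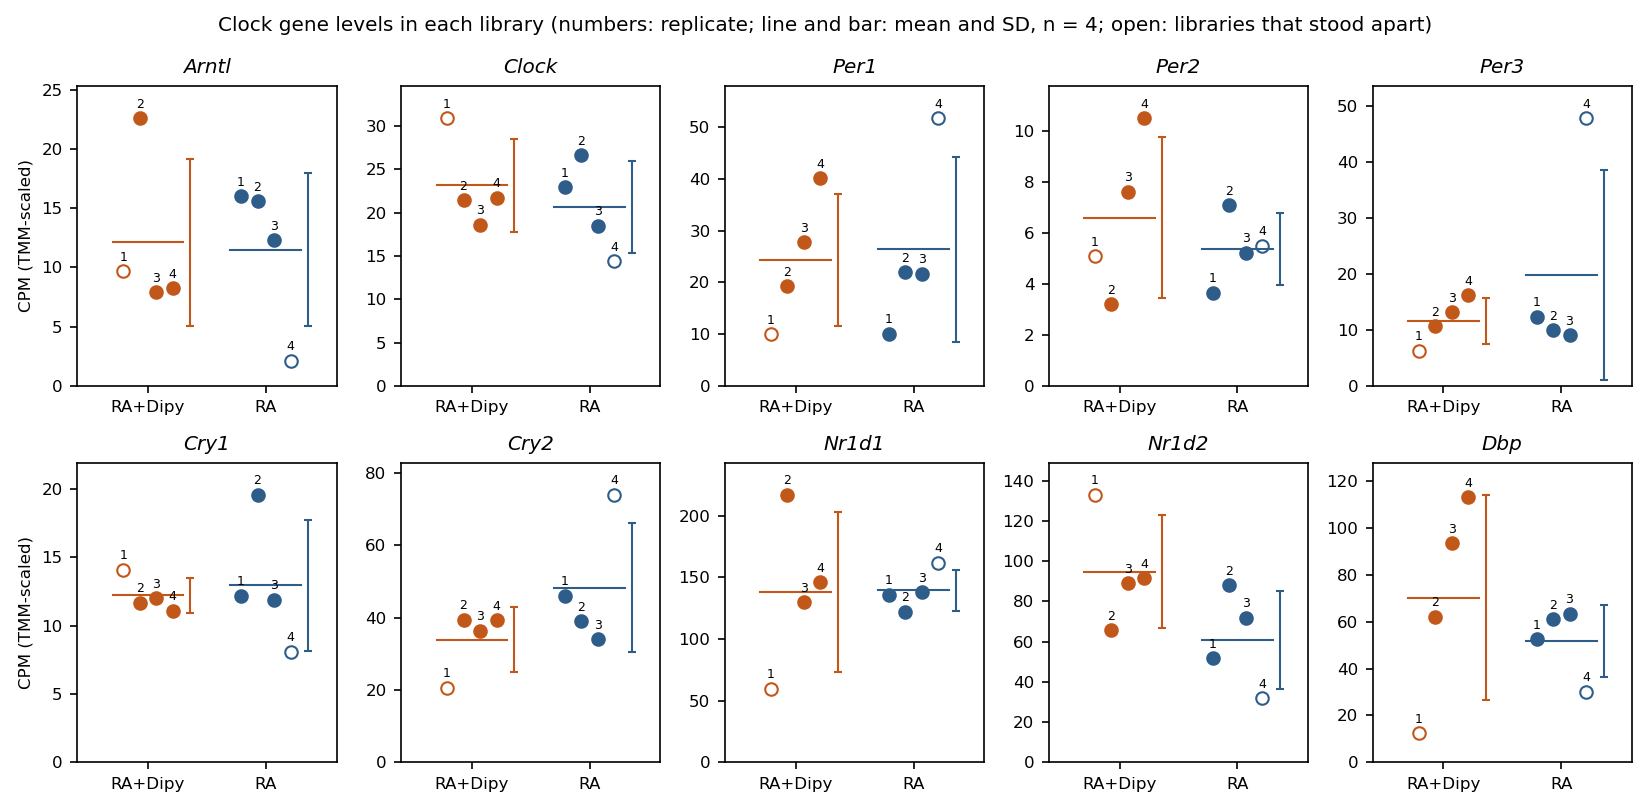
Levels of the 10 clock genes in each library, in CPM on linear axes that start at 0; each panel shows RA+Dipy and then RA, points are mice numbered by replicate, and lines and bars are the group mean and SD (n = 4). The groups overlap in every panel, with Arntl at 7.93 to 22.6 CPM in RA+Dipy and 2.11 to 16.0 CPM in RA, and the open points (RA+Dipy replicate 1 and RA replicate 4) often lie outside the rest.

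The comparison of RA+Dipy with RA asks whether dipyridamole, which blocks nucleoside uptake and inhibits phosphodiesterases, came with other levels of the clock genes in arthritic muscle. No difference passed the test for any of the 10 genes: edgeR's quasi-likelihood test called 0 of 10 at an adjusted p under 0.05, against 0% of all 12755 genes, and every member had an adjusted p of at least 0.882. Before adjustment, 0 of 10 had a p under 0.05, where the share of all genes was 3.83%. The groups failed to overlap for 0 of 10, against 2.72% of all genes. DESeq2 and limma-voom each called 0 of 10, with 0 at an unadjusted p under 0.05. Of the members 5 were higher and 5 lower in RA+Dipy, and their median log2 fold change was 0.03, next to 52.2% higher and a median of 0.02 over all genes. In the 6 libraries without the pair that stood apart, 6 were higher and 4 lower, and the median was 0.28, next to 51.1% higher and a median of 0.01 over all genes. The spread between mice of one group was wide, and it is described gene by gene.

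Among the activators, Arntl (chromosome 7, 113207465 to 113314126, plus strand, GRCm38) stood at 9.70, 22.6, 7.93 and 8.24 CPM in RA+Dipy replicates 1 to 4, against 16.0, 15.6, 12.3 and 2.11 CPM in RA replicates 1 to 4. The highest RA+Dipy mouse, replicate 2, lay above every RA mouse, while the other 3 lay below RA replicates 1 to 3. The group means were 12.1 ± 7.01 CPM in RA+Dipy and 11.5 ± 6.48 CPM in RA (SD, n = 4 each; log2 fold change 0.06, SE 0.56, edgeR adjusted p = 0.979). The sign was set by single libraries: the log2 fold change was −0.43 without RA+Dipy replicate 2 and −0.27 without RA replicate 4, and the 6-library value was −0.18. From the highest to the lowest library Arntl ranged 10.7-fold, and 2.85-fold in the 6 libraries without the pair that stood apart. Its partner Clock (chromosome 5, 76209868 to 76304792, minus strand) was steadier, at 30.9, 21.4, 18.6 and 21.7 CPM in RA+Dipy and 22.9, 26.6, 18.5 and 14.4 CPM in RA. Clock varied 2.15-fold over the 8 libraries and 1.44-fold over the 6, and its log2 fold change was 0.17 (SE 0.27, edgeR adjusted p = 0.896), or −0.14 over the 6. Clock RNA is known to have a weak rhythm in most mouse tissues.

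Of the Per genes, whose proteins carry the delayed inhibition, Per1 (chromosome 11, 69095217 to 69109960, plus strand) varied most across the 6 libraries, at 3.97-fold. Its levels were 9.96, 19.3, 27.8 and 40.1 CPM in RA+Dipy and 10.1, 21.9, 21.7 and 51.7 CPM in RA. High and low values occurred in each group, and the log2 fold change was −0.11 (SE 0.52, edgeR adjusted p = 0.963). It was 0.45 without RA replicate 4, the library with the highest Per1, 0.15 without RA+Dipy replicate 1 and 0.71 without either (SE 0.34). Per2 (chromosome 1, 91415982 to 91459324, minus strand), the Per gene with the lowest level, had 5.08, 3.21, 7.62 and 10.5 CPM in RA+Dipy and 3.66, 7.09, 5.23 and 5.49 CPM in RA. Its extremes, replicates 2 and 4, were both in RA+Dipy, so that the RA range lay inside the RA+Dipy range (log2 fold change 0.30, SE 0.37, edgeR adjusted p = 0.885). Without RA+Dipy replicate 4 the log2 fold change of Per2 was −0.01, and without the pair that stood apart it was 0.44. Per3 (chromosome 4, 151003652 to 151044665, minus strand), whose promoter window carries the paired D-boxes, had 6.33, 10.7, 13.2 and 16.2 CPM in RA+Dipy and 12.4, 10.04, 9.10 and 47.9 CPM in RA. The RA mean rested on 1 library: the log2 fold change was −0.76 with it (SE 0.55, edgeR adjusted p = 0.882) and 0.16 without RA replicate 4, or 0.35 without the pair that stood apart.

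The Cry genes encode the other part of the inhibitor complex. Over the 6 libraries Cry1 varied 1.76-fold, close to Nr1d2 (1.76-fold), Per3 (1.78-fold) and Nr1d1 (1.79-fold). Cry1 (chromosome 10, 85131700 to 85185064, minus strand) had 14.1, 11.7, 12.0 and 11.1 CPM in RA+Dipy and 12.2, 19.6, 11.9 and 8.11 CPM in RA. All RA+Dipy values lay within the RA range, and the log2 fold change was −0.09 (SE 0.28, edgeR adjusted p = 0.948), or 0.18 without RA replicate 2 and −0.32 without the pair that stood apart. Cry2 (chromosome 2, 92403646 to 92434043, minus strand) had 20.7, 39.4, 36.4 and 39.3 CPM in RA+Dipy and 46.1, 39.0, 34.1 and 74.0 CPM in RA. Outside the pair that stood apart its levels spanned only 1.35-fold, the narrowest range of the 10 genes. Its log2 fold change of −0.51 (SE 0.32, edgeR adjusted p = 0.882) was −0.22 when RA replicate 4 was left out, −0.33 when RA+Dipy replicate 1 was, and −0.04 when neither was used. Cry2 shares 295 exon bases, 4.7% of its exons, with D930015M05Rik on the opposite strand, and Arntl 33 bases, 0.4%, with the antisense gene Gm45355, where counting without strand cannot separate the reads.

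The REV-ERB genes, repressors of Arntl, did not share a pattern. Nr1d1 (chromosome 11, 98767932 to 98775333, minus strand) had 59.7, 217, 129.6 and 146 CPM in RA+Dipy and 136, 122, 138 and 162 CPM in RA. The RA mice lay close together, and the lowest and the highest value were in RA+Dipy replicates 1 and 2 (log2 fold change −0.01, SE 0.36, edgeR adjusted p = 0.993; 0.24 without RA+Dipy replicate 1, −0.32 without RA+Dipy replicate 2; 0.32 without the pair that stood apart). Nr1d2 (chromosome 14, 18204054 to 18239127, minus strand) had 133, 65.7, 88.9 and 91.4 CPM in RA+Dipy and 51.9, 88.1, 71.9 and 32.0 CPM in RA. It had the smallest p of the 10 genes, with means of 94.8 ± 28.0 CPM in RA+Dipy and 61.0 ± 24.3 CPM in RA (SD, n = 4 each; log2 fold change 0.64, SE 0.35, edgeR unadjusted p = 0.0964, adjusted p = 0.882). The highest Nr1d2 value was in RA+Dipy replicate 1 and the lowest in RA replicate 4, and without this pair the log2 fold change was 0.23 (SE 0.21). The ratio of Nr1d2 to Nr1d1 CPM was 2.23 in RA+Dipy replicate 1 and 0.302 to 0.686 in the other RA+Dipy mice, against 0.197 in RA replicate 4 and 0.382 to 0.724 in the other RA mice. Nr1d1 shares 263 exon bases, 8.5% of its exons, with Thra on the opposite strand. Thra, a thyroid hormone receptor, averaged 62.3 ± 8.06 CPM in RA+Dipy and 102 ± 46.8 CPM in RA (log2 fold change −0.71, SE 0.32, edgeR adjusted p = 0.882). Its level was 170.4 CPM in RA replicate 4, and the log2 fold change of Thra was −0.32 without that library, −0.30 without the pair that stood apart and −0.35 with GC and length offsets.

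Dbp (chromosome 7, 45705088 to 45710203, plus strand), the direct output, had 12.5, 62.0, 93.4 and 113 CPM in RA+Dipy and 52.4, 61.1, 63.4 and 30.1 CPM in RA. The RA+Dipy group held both the lowest and the highest mouse, and the means were 70.3 ± 43.9 CPM in RA+Dipy and 51.7 ± 15.2 CPM in RA (SD, n = 4 each; log2 fold change 0.44, SE 0.54, edgeR adjusted p = 0.885). Without the pair that stood apart, RA+Dipy replicates 3 and 4 lay above and replicate 2 level with the RA mice (log2 fold change 0.61, SE 0.21, edgeR unadjusted p = 0.0154, adjusted p = 0.418). Dbp was then the 1 member of 10 with an unadjusted p under 0.05, where 11.4% of all genes in that fit had one, and 0% passed after adjustment. The fold rested on single mice in part: the log2 fold change of 0.44 was 0.11 without RA+Dipy replicate 4, and leaving out RA+Dipy replicate 1 instead gave 0.79 (SE 0.32). Dbp shares 539 exon bases, 18.0% of its exons, with Sphk2 on the opposite strand. Sphk2, a sphingosine kinase, averaged 15.3 ± 2.77 CPM in RA+Dipy and 20.2 ± 3.06 CPM in RA.

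**Figure D2:**
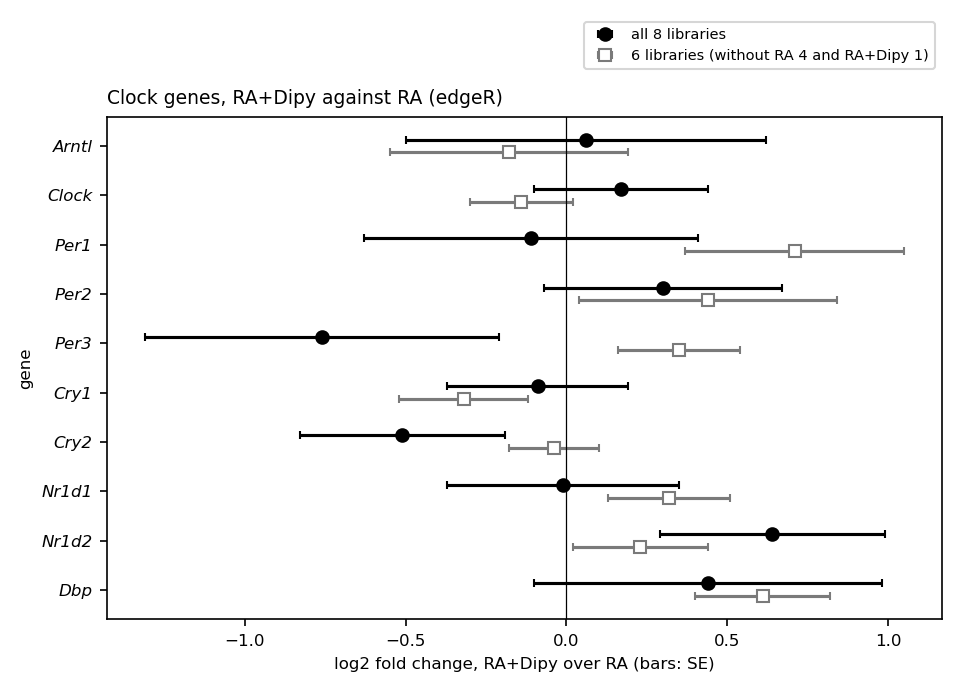
Log2 fold change of each clock gene, RA+Dipy over RA, with its SE from edgeR; filled circles use all 8 libraries and open squares the 6 without RA+Dipy replicate 1 and RA replicate 4. Per1 and Per3 stand at −0.11 and −0.76 with all libraries and at 0.71 and 0.35 with 6, and 0 genes passed the adjusted threshold in either fit.

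Phase was read from Arntl against its 6 targets and counterparts, Per1, Per2, Per3, Nr1d1, Nr1d2 and Dbp, in each mouse. The ratio of Dbp to Arntl CPM was 1.29, 2.75, 11.8 and 13.7 in RA+Dipy replicates 1 to 4 and 3.27, 3.92, 5.14 and 14.2 in RA replicates 1 to 4. RA+Dipy replicates 3 and 4 thus stood at the high-Dbp end and RA+Dipy replicate 2 at the high-Arntl end of the 6 libraries, with RA replicates 1 to 3 between them. The log2 level of Arntl minus the mean log2 level of the 6 genes was −0.87, −0.36, −2.25 and −2.49 in RA+Dipy and −0.56, −1.02, −1.25 and −4.04 in RA. Over the 6 libraries both measures put the mice in the same order. They are not independent, since both hold Arntl and Dbp is among the 6 genes averaged.

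Across all 8 libraries the Per genes ran opposite to Arntl in sign. Pearson's r of log2 CPM with Arntl was −0.66 for Per1 (rho −0.69), −0.37 for Per2 (rho −0.69) and −0.80 for Per3 (rho −0.52). For Nr1d1, Nr1d2 and Dbp it was 0.04, 0.46 and 0.25 (rho 0.05, −0.19 and −0.07). Over the 6 pairs tested, 3 had a negative r and 0 passed the exact permutation test after adjustment: the smallest two-sided p, for Per3, was 0.0455, or 0.210 adjusted over the 6 pairs. The unadjusted p was 0.0700 for Per1, 0.368 for Per2, 0.899 for Nr1d1, 0.246 for Nr1d2 and 0.505 for Dbp by the same exact permutation test. For rho the exact permutation p was 0.0694 for Per1 and Per2, 0.197 for Per3, 0.935 for Nr1d1, 0.665 for Nr1d2 and 0.882 for Dbp, with a smallest adjusted value of 0.208.

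In the 6 libraries without the pair that stood apart, 5 of the 6 pairs had a negative r. It was −0.67 for Per1 (rho −0.83), −0.85 for Per2 (rho −0.89), −0.61 for Per3 (rho −0.43), −0.64 for Nr1d2 (rho −0.83) and −0.84 for Dbp (rho −0.77). Nr1d1 alone was positive, at 0.55 (rho 0.31), with its highest value in the same mouse as Arntl, RA+Dipy replicate 2. The smallest exact permutation p were 0.0389 for Dbp and 0.0444 for Per2, each 0.133 after adjustment over the 6 pairs, so none passed. For rho the smallest was 0.0333 for Per2, or 0.117 after adjustment (exact permutation). As a description over these 6 libraries, r with Dbp was 0.89 for Per1, 0.82 for Per2, 0.74 for Per3, 0.76 for Nr1d2 and −0.10 for Nr1d1. Over all 8 libraries r with Dbp was 0.43, 0.40, 0.12, −0.05 and 0.65 for these genes in the same order. When the 2 libraries farthest from the Arntl median were left out instead (RA replicate 4 and RA+Dipy replicate 2), r was −0.50 for Per1, −0.64 for Per2, −0.21 for Per3, 0.15 for Nr1d1, −0.59 for Nr1d2 and −0.13 for Dbp. The relation of Arntl with Dbp did not hold with that choice, which kept RA+Dipy replicate 1. Within one group there were too few mice for a correlation.

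**Figure D3:**
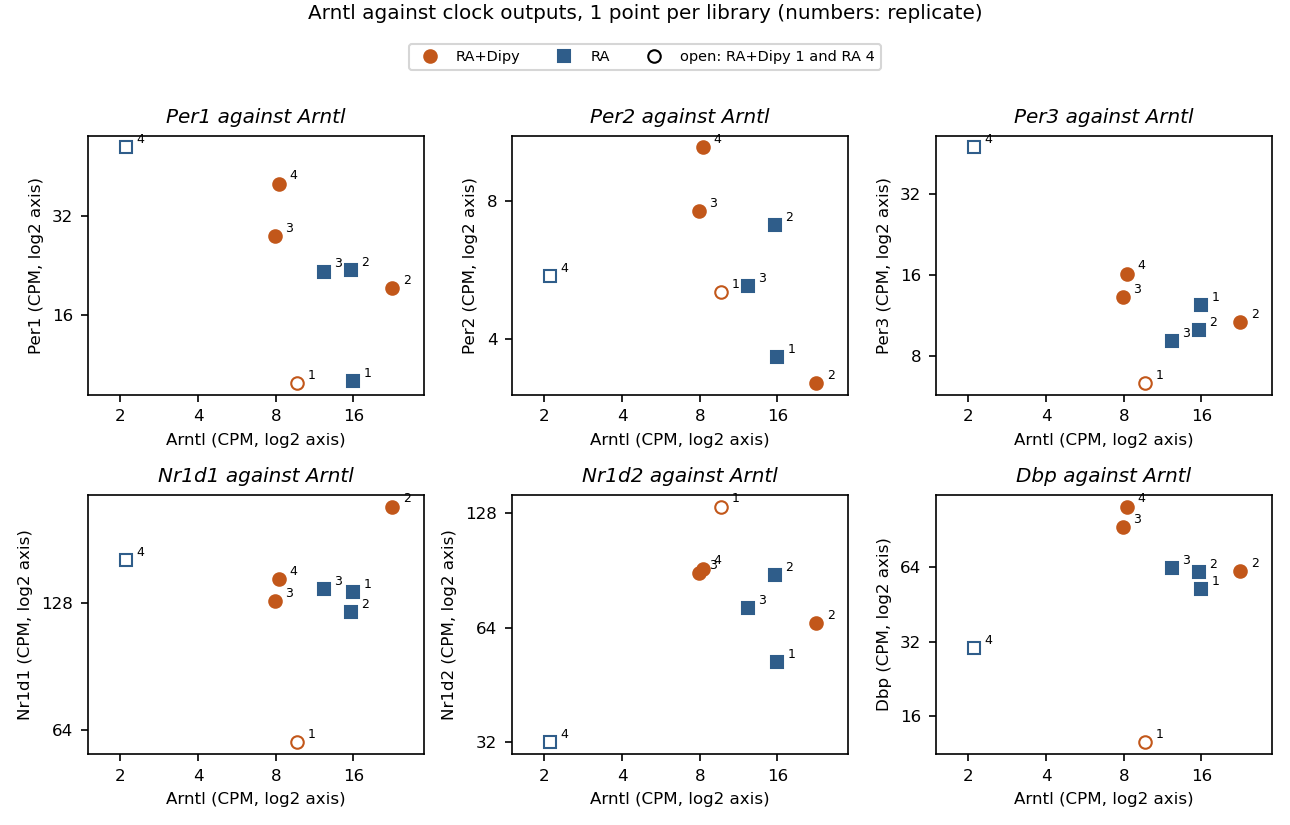
Each of 6 clock genes (CPM, log2 axis) against Arntl (CPM, log2 axis), 1 point per library numbered by replicate; circles are RA+Dipy, squares RA, and open symbols RA+Dipy replicate 1 and RA replicate 4. Filled points slope downward for Per1, Per2, Per3, Nr1d2 and Dbp (r from −0.85 to −0.61 over 6 libraries) and upward for Nr1d1 (0.55). With the open points included, r was −0.66 for Per1, −0.37 for Per2, −0.80 for Per3, 0.46 for Nr1d2, 0.25 for Dbp and 0.04 for Nr1d1.

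In each library of the pair that stood apart, Arntl and Dbp both lay below the median of the other 6. Neither library thus showed high Arntl with low Per and Dbp, or the reverse. In RA replicate 4, 8 of 10 genes lay outside the range of the other 6 libraries: relative to their median on the log2 scale Arntl stood at −2.67, Per3 at 2.05 and Per1 at 1.24, with Dbp at −1.06 and Nr1d2 at −1.31. Per2, at −0.15, lay inside the range. In RA+Dipy replicate 1, 7 of 10 lay outside that range, with Dbp at −2.32, Nr1d1 at −1.19, Per1 at −1.13 and Per3 at −0.85, and with Nr1d2 at 0.74 and Clock at 0.52. Arntl stood at −0.51 there, below the median as Dbp and Per1 were. Across the 10 genes these deviations went with the GC content of the transcripts, which ran from 41.5% in Clock to 58.9% in Per1, at r = −0.83 in RA+Dipy replicate 1 and 0.47 in RA replicate 4, given as a description over 10 genes of 1 library. After offsets for GC content and length were fitted per library, 5 genes in RA+Dipy replicate 1 and 6 in RA replicate 4 were still outside the range. Across the 10 genes r with GC content was still −0.71 in RA+Dipy replicate 1, and 0.22 in RA replicate 4. Arntl was then at −2.36 and Per3 at 1.92 in RA replicate 4, while Per1, at 0.68, was inside the range, and Dbp at −2.10 in RA+Dipy replicate 1.

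The wider clock network was drawn from 4 lists. It comprised 42 further genes, of which 39 were tested: 0 passed the adjusted threshold in edgeR in either direction, 21 were higher and 18 lower in RA+Dipy, and 2 had an unadjusted p under 0.05, 5.13% of those tested beside 3.83% of all genes. In the positive arm and stabilising loop (9 tested, 5 higher and 4 lower, median log2 fold change 0.06, or 0.16 without the pair that stood apart), Npas2, a relative of Clock that also partners BMAL1, had 2.51, 2.81, 0.847 and 1.00 CPM in RA+Dipy and 2.64, 1.46, 1.64 and 0.592 CPM in RA. Like Arntl it was highest in RA+Dipy replicate 2 and, among the 6 libraries, lowest in RA+Dipy replicate 3. Over these 6, Npas2 ranked 54th of 11713 genes in its r with Arntl (0.92), and over all 8 libraries 684th (0.83). Ciart, a repressor of the CLOCK and BMAL1 pair, had 2.05, 4.80, 8.08 and 11.8 CPM in RA+Dipy and 3.15, 5.13, 5.19 and 21.7 CPM in RA. Ciart was lowest in RA+Dipy replicate 1 and highest in RA replicate 4. In its r with Dbp, Ciart ranked 13th of 11713 genes over the 6 libraries (0.98), but 4056th over all 8 (0.39). Npas2 and Ciart were singled out after their values were seen.

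**Figure D4:**
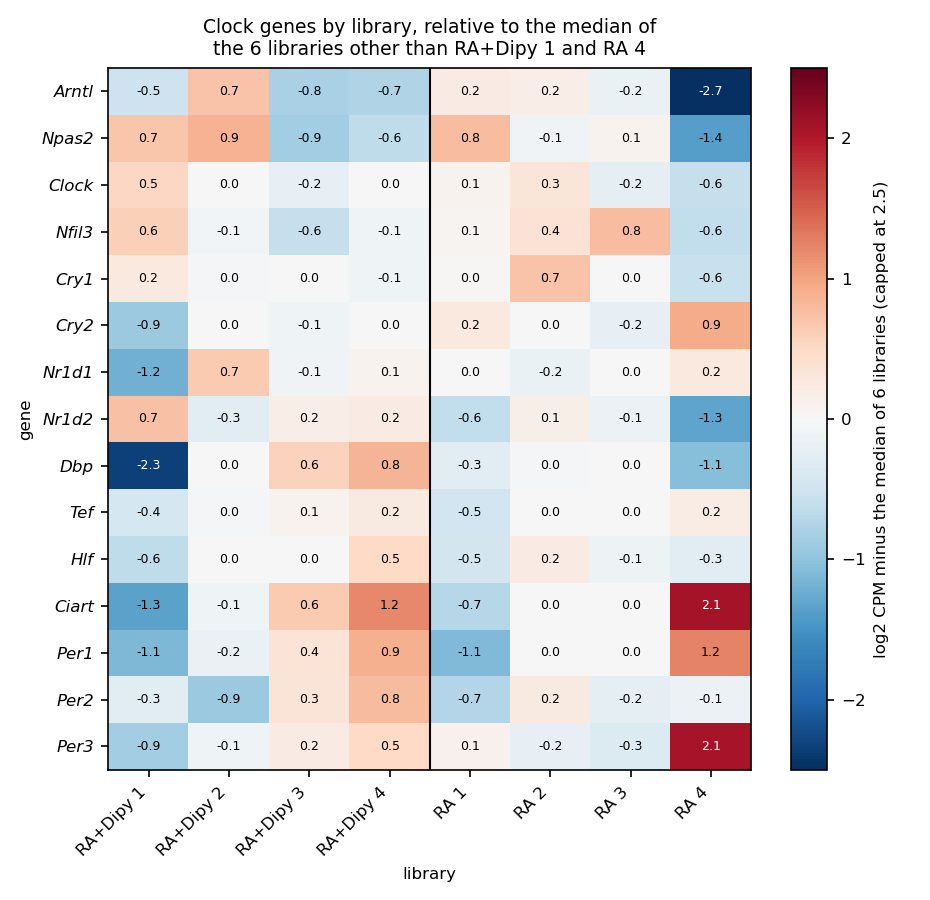
Log2 CPM of the 10 clock genes and 5 related genes in each library, RA+Dipy left and RA right, as the difference from the median of the 6 libraries other than RA+Dipy replicate 1 and RA replicate 4 (colour capped at 2.5). RA+Dipy replicates 3 and 4 show low Arntl and Npas2 with high Dbp, Ciart and Per, RA+Dipy replicate 2 high Arntl and Npas2, and RA replicate 4 has Arntl at −2.67.

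The DBP relatives Tef and Hlf, which bind the same D-box, had log2 fold changes above 0 without a call (median 0.09, or 0.27 without the pair that stood apart; smallest edgeR adjusted p = 0.903). Tef ranged from 165 to 262 CPM in RA+Dipy and from 162 to 256 CPM in RA. Of 12 tested kinases, phosphatases and ligases that set the lifetime of the PER and CRY proteins, 5 were higher and 7 lower (median −0.16, or −0.08 without the pair that stood apart). Csnk2b, the regulatory subunit of casein kinase 2, had 67.9, 109, 87.6 and 82.9 CPM in RA+Dipy and 139.8, 93.9, 121 and 222 CPM in RA (log2 fold change −0.73, SE 0.31, edgeR unadjusted p = 0.0390, adjusted p = 0.882). It was −0.43 without RA replicate 4 and −0.33 without the pair that stood apart. Usp2, a rhythmic deubiquitinase, had 324, 178, 233 and 226 CPM in RA+Dipy and 246, 170.3, 211 and 1071 CPM in RA, and its log2 fold change of −0.82 was 0.22 without RA replicate 4 and 0.03 without the pair.

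Among 16 tested clock-controlled genes, 9 were higher and 7 lower (median 0.29, or 0.22 without the pair that stood apart). Of the 16, 1 had an unadjusted p under 0.05, a share of 6.25% beside 3.83% of all genes. Ucp3, the mitochondrial uncoupling protein of muscle, had 47.0, 88.8, 124 and 87.1 CPM in RA+Dipy and 27.2, 63.6, 58.8 and 23.7 CPM in RA. Its values overlapped between groups only through RA+Dipy replicate 1 (log2 fold change 1.00, SE 0.41, edgeR unadjusted p = 0.0326, adjusted p = 0.882). Pdk4, the kinase that shuts off pyruvate oxidation in fasting, had 312, 413, 474 and 281 CPM in RA+Dipy and 89.2, 303, 275 and 71.1 CPM in RA (log2 fold change 1.00, SE 0.48, edgeR adjusted p = 0.882). Without the pair that stood apart the log2 fold change of Pdk4 was 0.82. Ucp3 and Pdk4 are known to respond to fasting and fatty acids as well as to the clock. Tcap, a titin-capping protein, had a log2 fold change of −1.01, or −0.14 without RA replicate 4 and −0.37 without the pair. Gys1, muscle glycogen synthase, had one of −0.56, or −0.20 and −0.02. Pdp1, a phosphatase that activates pyruvate dehydrogenase, had one of 0.44, or 0.29 and 0.27. Prkaa1, an AMPK subunit counted with the kinases, had one of 0.47, or 0.26 and 0.27.

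Without the pair that stood apart, 6 of the 39 wider genes had an unadjusted p under 0.05, 15.4% beside 11.4% of all genes, and 0 passed after adjustment. The 5 described here were named by that p. The log2 fold change was 0.90 for Ciart (SE 0.32), but −0.37 over all 8 libraries (SE 0.66, edgeR adjusted p = 0.903). For Nfil3, a repressor that competes with DBP for the D-box, it was −0.66 (SE 0.20). Bhlhe40, an E-box repressor, had one of 0.33 and Csnk1e, a kinase of the PER proteins, one of −0.34. Ucp3 had one of 1.02 (edgeR adjusted p = 0.418 to 0.427 for the 5). Over all 8 libraries the log2 fold change was −0.22 for Nfil3, 0.22 for Bhlhe40, −0.24 for Csnk1e and 1.00 for Ucp3.

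The genes whose pattern was most like that of Arntl over all 8 libraries were no clock genes; these r describe libraries that also differ in depth and include the pair that stood apart. Among 11713 genes with a mean of at least 1 CPM the 5 highest in Pearson's r were Prune1 (0.97), Thumpd1 (0.97), Art3 (0.96), Chtop (0.96) and Leo1 (0.96), and among the 5 lowest were P2rx4 (−0.97), Cryzl2 (−0.97), Rab31 (−0.97) and Irak4 (−0.97). For Dbp the highest included Stx2, Tm6sf1, Pgam1 and Pltp (0.98 to 0.99) and the lowest Angel2 (−0.996), Gnaq (−0.985), Cfap70 (−0.982), Snrpb2 (−0.980) and Psmd7 (−0.979). Over the 6 libraries without the pair that stood apart, those nearest to Arntl were Ubqln4, Cnksr1, Nolc1, Crtc2 and Elp2 (0.97 to 0.99) and those nearest to Dbp included C1ra, Acer2, Hk3 and C3ar1 (0.98 to 0.99). As extremes of 11713 genes over 6 or 8 libraries, such r can arise by selection alone, and none of them was tested. Hk3 and C3ar1 are known to be expressed in phagocytes. The second lowest r with Dbp was that of Csnk1e (−0.99). The macrophage marker sum was 215 and 205 CPM in RA+Dipy replicates 3 and 4, the high-Dbp mice, 223 CPM in RA+Dipy replicate 1, the mouse with the least Dbp, and 114 CPM in RA+Dipy replicate 2, against 73.3 to 130.1 CPM in RA. The part of other cell types in the levels of the clock genes was not tested.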

How the data were processed

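Gastrocnemius RNA of 8 mice was sequenced, 4 RA+Dipy and 4 RA. The authors deposited raw read counts per protein-coding gene. Per the labels, single reads were aligned with STAR 2.7.3a (build GRCm38.p6), and HTSeq counting ignored strand, per the design text. No source used here names the annotation release, and the labels and the design text name different library kits. Each table held 21859 lines, and 24 symbols on more than 1 line were summed. Totals cover protein-coding genes only. A count of 0 (limit 3 counts) allows 0.0592 to 0.183 CPM of the raw totals, before TMM scaling and for counting error only. Genes were kept by filterByExpr (minimum count 10) and scaled by TMM. RA+Dipy and RA were compared by the quasi-likelihood test of edgeR 4.0.16 (R 4.3.3, robust, two-sided), adjusted by Benjamini-Hochberg over all 12755 genes with a threshold of 0.05. The SE is the log2 fold change over the root of the F statistic. Correlations used log2 CPM (prior count 2) with exact permutation tests over all pairings. Gene positions, lengths and GC content come from GENCODE vM21 and promoters from RefSeq. DESeq2 1.42.0 and limma 3.58.1 were alternatives. The edgeR fit was run on simulated counts with the same dispersion for all genes and no outlying library, unlike these data. The GC and length offsets were tried on simulated counts with GC bias put into 1 library. Within a group no library pair agreed within sampling noise (smallest chi-square per degree of freedom 29.3). Named genes were all members, the 8 wider clock genes with the smallest p, genes sharing exons with a member, and the 5 most and least like Arntl and Dbp; Npas2, Ciart, Tef, Hlf, Nfil3, Bhlhe40 and Csnk1e were named outside this rule, with their values known. Members and lists were chosen with earlier results of these data known. Values of a few genes that these rules name are not reported here.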

Additional observations from a re-analysis of the deposited data

Results flagged for a closer look

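In 5 of 36 groups of 4 values examined (10 clock genes and 8 wider clock genes, each in both groups), 1 library lay far from the other 3, by Dixon's criterion for the gap against the group's range. For independent, normally distributed values chance alone gives about 1 in 20 such groups. Here the genes share their libraries and the 8 wider genes were named by their p. That rate is therefore not the chance rate of this screen. Arntl was at 22.6 CPM in RA+Dipy replicate 2, against 7.93 to 9.70 CPM in the other RA+Dipy mice. Cry2 was at 20.7 CPM in RA+Dipy replicate 1, against 36.4 to 39.4 CPM in the other RA+Dipy mice. Per3 was at 47.9 CPM in RA replicate 4, against 9.10 to 12.4 CPM in the other RA mice. The same library held Usp2 at 1071 CPM, against 170.3 to 246 CPM, and Tcap at 15596 CPM, against 2745 to 4445 CPM. RA replicate 4 gave 3 of the 5 flags and RA+Dipy replicate 1 gave 1, the libraries that stood apart over all genes.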

How the results depend on the processing

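Each of 20 other settings called 0 of the 10 clock genes, and 138 genes in all were called by limma-voom with library weights, against 0 in every other setting. Of 200 member fold changes under these settings, 171 kept their sign and 29 did not; Cry2, Nr1d2 and Dbp kept theirs throughout. With library weights the log2 fold change was −0.46 for Arntl, −0.06 for Clock, 0.69 for Per1, 0.31 for Per3 and 0.09 for Nr1d1. With GC and length offsets it was −0.01 for Arntl, −0.08 for Clock, 0.22 for Per1 and 0.19 for Nr1d1, and with the replicate block added −0.09, 0.26 and 0.09 for Clock, Per1 and Nr1d1. Upper-quartile factors gave 0.06 for Nr1d1. Without the 2 libraries that stood apart it was −0.18 for Arntl, −0.14 for Clock, 0.71 for Per1, 0.35 for Per3, 0.32 for Nr1d1 and 0.03 for Usp2. Leaving out 1 replicate at a time gave −0.43 to 0.26 for Arntl, −0.01 to 0.31 for Clock, −0.46 to 0.45 for Per1, −0.01 to 0.53 for Per2, −1.0 to 0.16 for Per3, −0.24 to 0.18 for Cry1, −0.32 to 0.24 for Nr1d1, 0.11 to 0.79 for Dbp and −1.08 to 0.22 for Usp2. The cause was not tested. The number of negative correlations with Arntl among 6 pairs was 5, against 3, without the 2 libraries that stood apart and without the 2 farthest from the Arntl median, and 3 to 5 when 1 replicate was left out. In the first setting r was 0.55 for Nr1d1, −0.64 for Nr1d2 and −0.84 for Dbp, and in the second −0.59 for Nr1d2 and −0.13 for Dbp. With 1 replicate left out, r ran from −0.29 to 0.50 for Nr1d1, −0.62 to 0.60 for Nr1d2 and −0.05 to 0.42 for Dbp. The replicate number as a block left 0 genes called and 165 at an unadjusted p under 0.05, against 488. The replicate numbers are not stated to pair mice and were not taken to do so. Deviations of same-numbered libraries correlated at −0.31, 0.19, 0.27 and −0.42 for replicates 1 to 4. The 2 negative values involve the libraries that stood apart, so these correlations cannot decide whether mice were paired. With 4 mice a group, the common biological coefficient of variation was 0.386, or 0.183 without the 2 libraries that stood apart. Those libraries also had the lowest total of their group. The parts of mice, depth and library quality in this spread were not tested.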
